A study of Mus musculus with 12 samples.

Results

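Mouse embryonic fibroblasts that had received AMN107 and then interferon-gamma were compared with fibroblasts that had received DMSO, across every gene with a usable probe set. The comparison took the 4 arrays titled AMN107-IFNg (2) and DMSO (2) of 12 arrays in the series, chosen by title alone, and it covered 12192 genes. AMN107 is the ABL kinase inhibitor nilotinib, and DMSO is the solvent that served as the vehicle. The AMN107-IFNg cells were given AMN107 and were then stimulated with interferon-gamma for 6 h, and the DMSO cells received neither. The series also holds IFNg arrays (interferon-gamma for 6 h without AMN107) and AMN107 arrays (AMN107 without interferon), 2 of each, used here to place the combined state between its parts. All cells were grown in Dulbecco's modified Eagle's medium with heat-inactivated fetal bovine serum. The labels give no dose and no duration for AMN107, name no strain or embryo age, and number the arrays as biological replicates without saying that they came from separate cultures. P-values therefore measure the spread between these arrays, which may be technical. The study asked how an inhibitor of c-Abl affects the genes that interferons induce.

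Interferon-gamma binds a receptor made of IFNGR1 and IFNGR2 and activates the kinases JAK1 and JAK2. The signal reaches GAS elements in promoters and switches on Irf1 and other transcription factors, which act through ISRE elements on a later wave of genes for GTPases, antigen presentation and antiviral defence. Nilotinib binds the kinase domains of ABL1 and ABL2 and also acts on the PDGF receptors and the collagen receptor DDR1. Fibroblasts respond to interferon-gamma without being immune cells, make collagen, and synthesise their own cholesterol under the control of the transcription factor SREBP2.

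Promoters of 5 genes described here are printed, chosen because they hold a match to one of these elements; the windows of Ifi47, Cxcl9, Cmpk2 and Lss, which also lead the results, hold none. Each is the plus strand of RefSeq's GRCm38.p6 assembly, 300 bases long, with capitals at each match to a searched motif. Gbp2 lies at chr3:142620413-142620712, Igtp at chr11:58199306-58199605, Ifit3 at chr19:34583279-34583578, Irf1 at chr11:53769764-53770063 and Hmgcs1 at chr13:119690101-119690400. In Gbp2 and Ifit3 the capitals mark the ISRE core on the reverse strand, in Igtp a GAS element followed by an ISRE core, in Irf1 a GAS element and in Hmgcs1 a sterol regulatory element.
Gbp2: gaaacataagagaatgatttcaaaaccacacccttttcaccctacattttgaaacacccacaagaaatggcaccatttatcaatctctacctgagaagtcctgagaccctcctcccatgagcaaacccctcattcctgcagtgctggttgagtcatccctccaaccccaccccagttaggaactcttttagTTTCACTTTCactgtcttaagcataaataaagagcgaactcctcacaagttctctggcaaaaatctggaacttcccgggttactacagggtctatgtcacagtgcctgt
Igtp: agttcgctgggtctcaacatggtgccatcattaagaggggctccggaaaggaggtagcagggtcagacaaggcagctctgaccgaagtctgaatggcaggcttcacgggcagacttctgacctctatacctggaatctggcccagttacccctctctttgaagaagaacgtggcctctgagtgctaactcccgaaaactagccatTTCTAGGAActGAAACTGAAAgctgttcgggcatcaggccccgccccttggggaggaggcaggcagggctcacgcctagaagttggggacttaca
Ifit3: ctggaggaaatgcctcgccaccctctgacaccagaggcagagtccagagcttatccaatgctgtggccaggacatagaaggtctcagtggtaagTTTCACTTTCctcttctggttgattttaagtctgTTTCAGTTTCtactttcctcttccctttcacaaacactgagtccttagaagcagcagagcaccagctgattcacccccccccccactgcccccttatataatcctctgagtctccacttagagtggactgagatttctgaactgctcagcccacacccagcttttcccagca
Irf1: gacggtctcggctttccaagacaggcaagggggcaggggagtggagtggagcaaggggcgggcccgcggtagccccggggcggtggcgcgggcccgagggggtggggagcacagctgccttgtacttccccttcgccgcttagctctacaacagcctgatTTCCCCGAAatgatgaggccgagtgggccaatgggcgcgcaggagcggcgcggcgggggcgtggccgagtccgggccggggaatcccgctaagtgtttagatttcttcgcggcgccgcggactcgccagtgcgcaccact
Hmgcs1: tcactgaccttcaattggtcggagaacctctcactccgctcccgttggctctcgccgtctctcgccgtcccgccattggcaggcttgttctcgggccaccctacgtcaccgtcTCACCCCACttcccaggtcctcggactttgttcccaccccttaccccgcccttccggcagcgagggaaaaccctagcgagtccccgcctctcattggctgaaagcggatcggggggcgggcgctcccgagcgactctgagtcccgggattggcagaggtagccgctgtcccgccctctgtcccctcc
The first base of the match lies 59 bases before the annotated start in Gbp2, 45 (GAS) and 34 (ISRE core) in Igtp, 156 and 122 in Ifit3, 90 in Irf1 and 137 in Hmgcs1. A further annotated start of Irf1 has no match in its window.

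The values are MAS5 signals, a linear probe set intensity, and differences are given on the scale log2(signal + 8.66). A fold is 2 to the power of this difference, so for dim genes it lies below the ratio of the signals themselves. Every adjusted p is from limma with Benjamini-Hochberg adjustment over the 12192 genes, and "called" means an adjusted p under 0.05. "Rose" and "fell" refer to AMN107-IFNg relative to DMSO. Each array measures RNA from a whole culture, so fewer cells of a type and less RNA per cell cannot be told apart.

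The AMN107-IFNg and DMSO arrays differed in 3 technical values. The 2% trimmed mean signal was 109.5 and 110.2 on the AMN107-IFNg arrays and 99.8 and 100.7 on the DMSO arrays. The LysX spike, a poly-A transcript mixed into the sample, gave 41.4 and 40.0 on the AMN107-IFNg arrays and 59.6 and 66.2 on the DMSO arrays. The 5′/3′ signal ratio of actin was 0.805 and 0.801 on the AMN107-IFNg arrays and 0.676 and 0.712 on the DMSO arrays, while that of GAPDH was 1.14 and 1.16 against 1.09 and 1.07. Among the IFNg and AMN107 arrays LysX was 36.1 to 40.6 and the actin ratio 0.791 to 0.819, so of these 4 groups the DMSO arrays lay apart; an IFNa array had like values (LysX 81.1, actin ratio 0.696). The part of these differences in the results was not tested. Replicate arrays correlated at 0.998 (AMN107-IFNg) and 0.997 (DMSO) across genes.

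The fibroblast label was checked against 12 markers, of which 8 lay above the array median on all 4 arrays and 3 on none. The intermediate filament gene Vim had 4075 and 3970 in AMN107-IFNg cells and 2823 and 2786 in DMSO cells. S100a4, a calcium-binding protein of fibroblasts, had 1872 and 2095 in AMN107-IFNg cells and 5168 and 5193 in DMSO cells, and it carried most of the difference in the summed marker signal (6935 and 7061 against 9488 and 9402). Col1a1 (34.4 and 34.3 against 53.8 and 42.9) and Dcn (35.5 and 30.2 against 29.9 and 27.2) lay little above the array medians of 21.3 to 22.7, and Thy1, Fap and Lum lay under the median on all 4 arrays. Of 12 macrophage and leukocyte markers, 5 (Cd68, Csf1r, Cd14, Cd3e and Spi1) were above the median on all 4 arrays and 6 on none, and the summed signal was 340 and 331 in AMN107-IFNg cells and 400 and 409 in DMSO cells. The summed endothelial, epithelial and muscle markers were 149 to 234 in AMN107-IFNg cells and 209 to 253 in DMSO cells. Fat and cartilage markers summed to 193 and 183 in AMN107-IFNg cells and 145 and 144 in DMSO cells. The neuron markers summed to 922 and 806 against 223 and 237, a difference that lay mostly in the tubulin gene Tubb3 (692 and 572 against 25.1 and 32.5), with Map2 at 113 and 114 against 44.8 and 59.8. Of the 9 neuron markers 4 were above the median on all 4 arrays (Rbfox3 and Syp, both lower in AMN107-IFNg cells, being the others) and 5 on none.

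In AMN107-IFNg cells 3723 genes (30.5%) were higher and 2934 (24.1%) lower than in DMSO cells at any size. These shares are the background for the counts of list members below, some of which lie near them. At least 2-fold differences were far more one-sided, with 408 genes (3.35%) higher and 57 (0.468%) lower, and in each of these genes both AMN107-IFNg arrays lay beyond both DMSO arrays. Among the 408, 81 were over 4-fold and 17 over 16-fold higher. Among the 57, 3 were over 4-fold lower. With other scalings more genes were still at least 2-fold higher than lower, but the split was less one-sided. The counts were 306 higher and 97 lower after quantile normalization, 297 and 99 after median centring and 313 and 82 with equal trimmed means. The any-size split changed with the scaling as well. It was 2633 higher and 4302 lower after quantile normalization, 2505 and 5686 after median centring and 2734 and 4976 with equal trimmed means, and the median log2 difference of all genes was then -0.09, -0.17 and -0.13, in place of -0.01. A gene could pass the filter on dim signals through the arrays that induced it: 34 of the 408 lay under the array median on both DMSO arrays, as did 328 of all 12192 genes.

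The largest rises were the interferon-inducible GTPases, which attack the vacuoles of intracellular pathogens. Gbp2b, a guanylate-binding protein, had a signal of 2327 and 2216 in AMN107-IFNg cells, 2009 and 1903 in IFNg cells, 130 and 164 in AMN107 cells and 22.3 and 17.0 in DMSO cells. It was 80.9-fold higher in AMN107-IFNg than in DMSO cells (log2 6.34, SE 0.10, adjusted p = 6.05e-17), and the AMN107-IFNg and IFNg levels differed by 0.22 log2 (adjusted p = 0.0872). Gbp2 had 2291 and 2452 in AMN107-IFNg cells, 2224 and 2286 in IFNg cells, 197 and 289 in AMN107 cells and 22.5 and 23.6 in DMSO cells, a 75-fold rise (log2 6.23, SE 0.12, adjusted p = 5.59e-16). The probe sets used for Gbp2 and some other genes are of a type that can bind related transcripts, and GBP genes resemble each other, so the split between these genes is uncertain.

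Of the immunity-related GTPases, Iigp1 reached the largest fold. It had 1485 and 1466 in AMN107-IFNg cells, 2712 and 2670 in IFNg cells, 15.5 and 14.8 in AMN107 cells and 12 and 9.78 in DMSO cells. Its rise was 76.0-fold (log2 6.25, adjusted p = 6.17e-18), and it was lower in AMN107-IFNg than in IFNg cells (log2 -0.86, adjusted p = 3.22e-07). Igtp, whose promoter is printed above, had 3294 and 3194 in AMN107-IFNg cells, 3399 and 3238 in IFNg cells, 426 and 524 in AMN107 cells and 83.3 and 78.0 in DMSO cells. That is a 36.4-fold rise over DMSO (log2 5.19, SE 0.08, adjusted p = 6.05e-17). Ifi47 (51.3-fold), Gbp7 (32.4-fold) and Irgm2 (22.5-fold) completed the GTPases among the 12 largest rises. Of 21 GTPases listed 11 were tested, and all 11 rose at least 2-fold, with a median log2 difference of 5.02 against -0.01 over all genes. A total of 4 of these 11 were under the array median on both DMSO arrays.

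**Figure D1:**
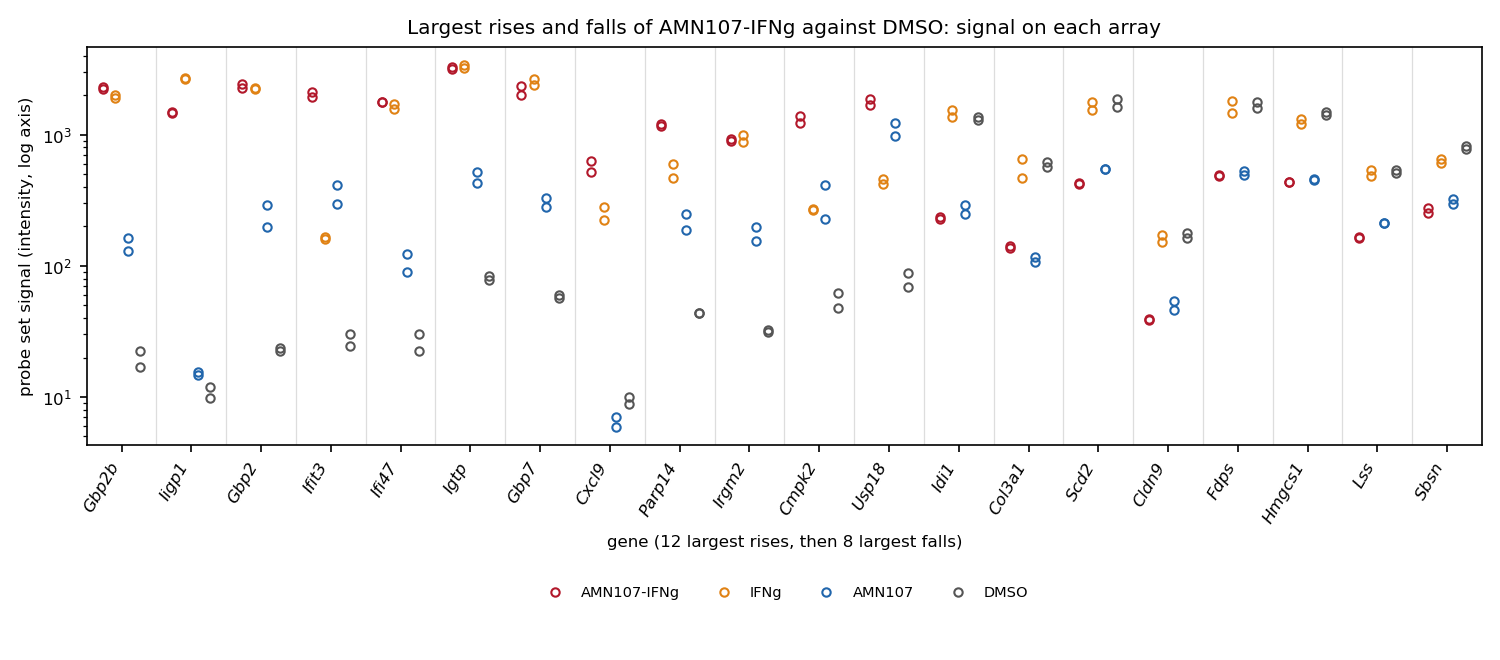
MAS5 signal (log axis) of the 12 genes with the largest rises and the 8 with the largest falls, 1 point per array, for AMN107-IFNg, IFNg, AMN107 and DMSO arrays. GTPases other than Iigp1 lie at like heights on AMN107-IFNg and IFNg arrays, Ifit3, Cmpk2 and Usp18 are highest on AMN107-IFNg arrays, and the falling genes are low on both AMN107-IFNg and AMN107 arrays.

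The antiviral effectors rose as a group, and the 4 with the largest rises were each called higher in AMN107-IFNg cells than in IFNg cells and in AMN107 cells. Ifit3, which binds foreign RNA together with its family members, had 2125 and 1953 in AMN107-IFNg cells, 162 and 166 in IFNg cells, 297 and 411 in AMN107 cells and 30.1 and 24.5 in DMSO cells. The AMN107-IFNg arrays did not overlap any other of these groups. The rise over DMSO was 57.1-fold (log2 5.83, SE 0.11, adjusted p = 7.28e-16). Over all genes, 1.08% were at least 2-fold higher in AMN107-IFNg than in IFNg cells and 0.886% at least 2-fold higher than in AMN107 cells. Ifit3 was also higher in AMN107-IFNg than in IFNg cells (log2 3.57, adjusted p = 2.95e-12) and in AMN107 cells (log2 2.51, adjusted p = 1.03e-10). Cmpk2, a nucleotide kinase next to the viperin gene, had 1225 and 1386 in AMN107-IFNg cells, 273 and 269 in IFNg cells, 228 and 413 in AMN107 cells and 62.1 and 47.9 in DMSO cells, a 20.7-fold rise (adjusted p = 6.17e-11). Parp14, an ADP-ribosyltransferase, rose 22.8-fold and Trim30a, a restriction factor, 17.5-fold. Trim30a had 499 and 454 in AMN107-IFNg cells, 162 and 157 in IFNg cells, 90.8 and 125 in AMN107 cells and 19.4 and 18.8 in DMSO cells. Of 40 effectors listed 36 were tested. Of these 32 rose, 28 of them at least 2-fold, and the median log2 difference was 1.93.

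The components of the interferon-gamma signal itself rose less, and the receptor's ligand-binding chain was not called. Ifngr1, the ligand-binding chain, had 113 and 106 in AMN107-IFNg cells and 117 and 136 in DMSO cells (log2 -0.19, SE 0.09, adjusted p = 0.0717). Ifngr2, the second chain, had 262 and 230 in AMN107-IFNg cells, 159 and 191 in IFNg cells, 292 and 291 in AMN107 cells and 141 and 165 in DMSO cells, and rose 1.58-fold (adjusted p = 2.66e-05). Jak1 rose 1.58-fold as well (205 and 201 against 123 and 127, adjusted p = 1.84e-06), a call lost in the fit to all 12 arrays (adjusted p = 0.155). Jak2 had 286 and 298 in AMN107-IFNg cells, 189 and 200 in IFNg cells, 196 and 187 in AMN107 cells and 135 and 139 in DMSO cells, a 2.06-fold rise (adjusted p = 2.84e-09). It was higher with both agents than with IFNg (log2 0.56, adjusted p = 7.84e-06) or AMN107 (log2 0.59, adjusted p = 1.49e-05).

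The transcription factors Irf1, Batf2, Irf7 and Stat2 rose more than Jak2 did. Irf1, a transcription factor of the IRF family, had 1288 and 1255 in AMN107-IFNg cells, 1610 and 1478 in IFNg cells, 222 and 213 in AMN107 cells and 184 and 218 in DMSO cells, a 6.12-fold rise (log2 2.61, SE 0.08, adjusted p = 1.16e-13). It was lower in AMN107-IFNg than in IFNg cells (log2 -0.28, adjusted p = 0.00791). Batf2, a partner of IRF1 in macrophages, rose 5.95-fold with like levels in AMN107-IFNg (244 and 212) and IFNg cells (205 and 226), against 28.5 and 23.7 in AMN107 cells and 32.1 and 30.0 in DMSO cells. Irf7, which amplifies type I interferon genes, had 849 and 750 in AMN107-IFNg cells, 384 and 347 in IFNg cells, 405 and 523 in AMN107 cells and 136 and 149 in DMSO cells, a 5.34-fold rise. Stat2, a subunit of the ISGF3 complex, had 148 and 161 in AMN107-IFNg cells, 91.8 and 80.9 in IFNg cells, 47.6 and 66.8 in AMN107 cells and 23.7 and 31.8 in DMSO cells, a 4.51-fold rise. In all, 13 of 16 signalling genes rose, 9 at least 2-fold, and 0 fell, although 2 or 3 were called lower under the other scalings.

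The feedback inhibitors did not move as a group: 5 of 13 rose and 3 fell, and the median of 0.09 turned to between -0.06 and -0.03 under the other scalings. Those that rose were led by Usp18, which removes ISG15 and blocks the type I interferon receptor. Usp18 had 1884 and 1688 in AMN107-IFNg cells, 459 and 420 in IFNg cells, 986 and 1232 in AMN107 cells and 68.6 and 88.5 in DMSO cells, so the level with AMN107 alone lay above that with IFNg alone. Its rise was 20.7-fold (log2 4.37, SE 0.10, adjusted p = 1.21e-14). Trim21, an antibody receptor of the cytosol, rose 6.53-fold and Socs1, which blocks JAK kinases, 3.29-fold. Socs3, another SOCS inhibitor, had 247 and 286 in AMN107-IFNg cells, 257 and 309 in IFNg cells, 55.3 and 56.7 in AMN107 cells and 98.8 and 99.9 in DMSO cells, a 2.54-fold rise (adjusted p = 5.65e-09).

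MHC class I presentation rose in every member that was tested, 13 of 21 listed, with 10 at least 2-fold higher and a median log2 difference of 1.29. Nlrc5, the transactivator of MHC class I genes, had 629 and 626 in AMN107-IFNg cells, 354 and 384 in IFNg cells, 73.8 and 87.9 in AMN107 cells and 39.6 and 45.2 in DMSO cells, a 12.5-fold rise (log2 3.64, SE 0.09, adjusted p = 1.04e-14). Psmb9, an immunoproteasome subunit, rose 8.85-fold, Tap1, which pumps peptides into the ER, 7.13-fold and Tapbpl, a peptide editor, 4.58-fold. These 3 had like levels in AMN107-IFNg and IFNg cells; Tap1, for example, had 478 and 468 in AMN107-IFNg cells, 519 and 431 in IFNg cells, 88.6 and 104 in AMN107 cells and 59.2 and 58.6 in DMSO cells. Of 11 MHC class II presentation genes listed, 10 had a probe set with 1 annotated gene and 5 were tested. The class II list was therefore covered only in part. The tested members did not rise as a group. Of these 5, 1 rose (Rfx5, a promoter-binding factor, 1.55-fold) and 1 fell (Ifi30, a lysosomal thiol reductase, 781 and 762 against 979 and 976). H2-Eb1, a class II chain, was dim, with 28.1 and 33.5 in AMN107-IFNg cells and 35.1 and 34.5 in DMSO cells (adjusted p = 0.182).

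Of 15 sensors of foreign RNA and DNA tested, 12 rose, 7 of them at least 2-fold. Mndal, of the DNA-binding p200 family, rose 18.4-fold and Zbp1, which senses Z-form nucleic acid, 11.2-fold. Tlr3, the endosomal receptor for double-stranded RNA, had 114 and 108 in AMN107-IFNg cells, 56.5 and 55.2 in IFNg cells, 25.2 and 27.1 in AMN107 cells and 18.7 and 13.3 in DMSO cells, a 4.89-fold rise (adjusted p = 1.76e-11). Ifi204, another p200 gene, had 478 and 698 in AMN107-IFNg cells and 165 and 121 in DMSO cells, a 3.91-fold rise with a wider error (SE 0.24).

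Among secreted factors the ligands of the receptor CXCR3, which draws T cells, led. Cxcl9 had 634 and 517 in AMN107-IFNg cells, 283 and 224 in IFNg cells, 6.99 and 5.87 in AMN107 cells and 8.88 and 9.93 in DMSO cells. It rose 32.2-fold over DMSO (log2 5.01, SE 0.12, adjusted p = 1.03e-14) and was 1.16 log2 above IFNg alone (adjusted p = 1.25e-06). Cxcl10 was bright on every array, with 5135 and 5360 in AMN107-IFNg cells, 3158 and 3155 in IFNg cells, 1617 and 1935 in AMN107 cells and 967 and 947 in DMSO cells, a 5.44-fold rise (adjusted p = 8.44e-14). Cxcl11 rose 12.3-fold, and Il15, a growth factor of natural killer and memory T cells, rose 5.71-fold, with 196 and 186 in AMN107-IFNg cells, 96.1 and 88.8 in IFNg cells, 57.3 and 66.8 in AMN107 cells and 26.0 and 26.7 in DMSO cells. Of 20 chemokines and cytokines tested 14 rose, 8 at least 2-fold, and 1 fell. Of the 20, 3 lay under the array median on both DMSO arrays.

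Genes of cell death and immune contact rose in 11 of 13 tested, 6 at least 2-fold. Of the 13, 3 lay under the array median on both DMSO arrays. Xaf1, an antagonist of the inhibitor XIAP, rose 9.17-fold, and the inflammatory caspase genes Casp12 and Casp4 rose 6.33-fold and 5.09-fold. Cd274, which encodes the checkpoint ligand PD-L1, had 214 and 199 in AMN107-IFNg cells, 127 and 126 in IFNg cells, 27.0 and 29.3 in AMN107 cells and 30.3 and 23.7 in DMSO cells, a 6.04-fold rise (log2 2.60, adjusted p = 1.32e-12). It was higher with both agents than with IFNg alone (log2 0.67, adjusted p = 2.71e-05).

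The metabolic enzymes linked to interferon-gamma rose in 5 of 7 tested, from 18 listed. Gch1, the first enzyme of tetrahydrobiopterin synthesis, had 1358 and 1269 in AMN107-IFNg cells, 481 and 448 in IFNg cells, 962 and 981 in AMN107 cells and 412 and 387 in DMSO cells. It rose 3.24-fold (adjusted p = 1.50e-12), and it was lower in IFNg than in AMN107 cells (log2 -1.05, adjusted p = 1.88e-09). Upp1, which cleaves uridine, rose 2.84-fold, Wars, the tryptophanyl-tRNA synthetase, 2.41-fold and Acod1, which makes itaconate, 1.66-fold at a dim signal (31.5 and 28.7 against 15.1 and 14.4). Of 5 complement genes tested the proteases C1ra (2.27-fold) and C1s1 (1.60-fold) rose, as did the inhibitor Cd59a (1.36-fold), and C2 fell by 0.45 log2. Of these 5, 2 lay under the array median on both DMSO arrays. NF-kappaB genes did not move one way: 6 of 14 were higher and 5 lower, against 2 or 3 higher and 5 lower under the other scalings, and their median of 0.04 was between -0.11 and -0.01 under the other scalings. Among them the inhibitor Nfkbiz had 488 and 498 in AMN107-IFNg cells and 207 and 176 in DMSO cells (2.51-fold higher), and Relb, a subunit, was 1.43-fold higher, while Tnip1 and Traf1 fell by 0.58 and 0.50 log2.

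**Figure D2:**
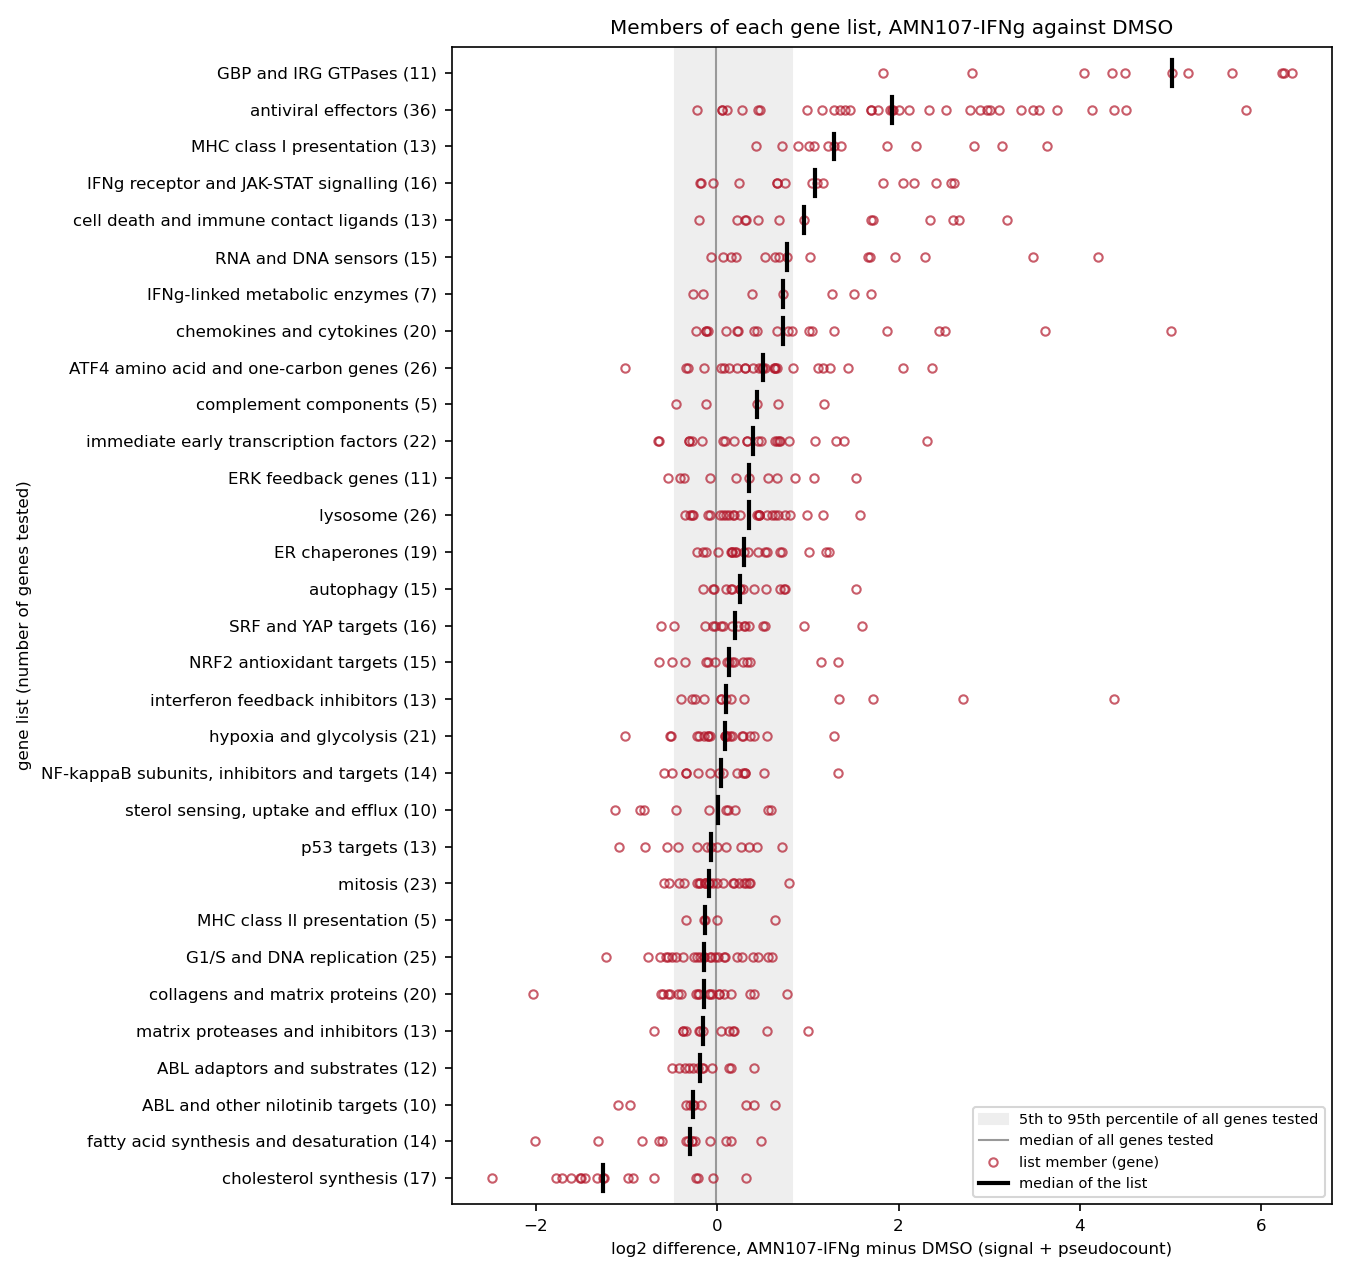
Log2 difference of signal + 8.66, AMN107-IFNg minus DMSO, for each tested member (circle) of the gene lists and the median of each list (black bar), with the 5th to 95th percentile of all genes tested in grey. GTPases, antiviral effectors, MHC class I presentation and JAK-STAT signalling have medians above 1, and cholesterol synthesis has a median of -1.26.

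The largest fall was in an enzyme of cholesterol synthesis, and 4 of the 8 largest falls were such enzymes. Idi1, which isomerises isopentenyl diphosphate, had 234 and 230 in AMN107-IFNg cells, 1533 and 1371 in IFNg cells, 250 and 291 in AMN107 cells and 1376 and 1297 in DMSO cells. It was 5.59-fold lower in AMN107-IFNg than in DMSO cells (log2 -2.48, SE 0.08, adjusted p = 4.08e-13), and its AMN107-IFNg level was close to that of AMN107 alone (log2 -0.21, adjusted p = 0.139). Hmgcs1, the HMG-CoA synthase whose promoter is printed above, had 438 and 439 in AMN107-IFNg cells, 1319 and 1205 in IFNg cells, 449 and 460 in AMN107 cells and 1499 and 1416 in DMSO cells, and was 3.28-fold lower (log2 -1.71, SE 0.06, adjusted p = 1.81e-12). Fdps, which makes farnesyl diphosphate, was 3.42-fold lower, and Lss, which closes lanosterol's rings, 3.06-fold lower. Lss was also lower in AMN107-IFNg than in AMN107 cells (log2 -0.35, adjusted p = 0.00764). In the fit to all 12 arrays, which adds IFNa arrays with Fdps at 1790 and 220, Fdps kept its difference with an adjusted p of 0.0585. Of 17 enzymes tested 15 fell, 10 of them at least 2-fold, and the median log2 difference was -1.26.

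Enzymes fell in both arms of the pathway, by unequal amounts and with exceptions. Before lanosterol the fall reached from 0.22 (Mvk) to 2.48 (Idi1) log2, and after lanosterol 1.46 (Cyp51), 1.26 (Hsd17b7) and 1.24 (Dhcr7) were the deepest. Tm7sf2 (log2 0.32) was the enzyme called higher, but 0 were called higher after median centring or with equal trimmed means, and Ebp was not called (log2 -0.05). Msmo1, which removes methyl groups from lanosterol, had 362 and 353 in AMN107-IFNg cells, 1289 and 1207 in IFNg cells, 426 and 471 in AMN107 cells and 729 and 701 in DMSO cells, so IFNg cells lay above DMSO cells (log2 0.80, adjusted p = 7.77e-07) whereas AMN107-IFNg cells lay below AMN107 cells (log2 -0.32). Of these enzymes, those not among the named 4 were chosen for mention after their values were seen.

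**Figure D3:**
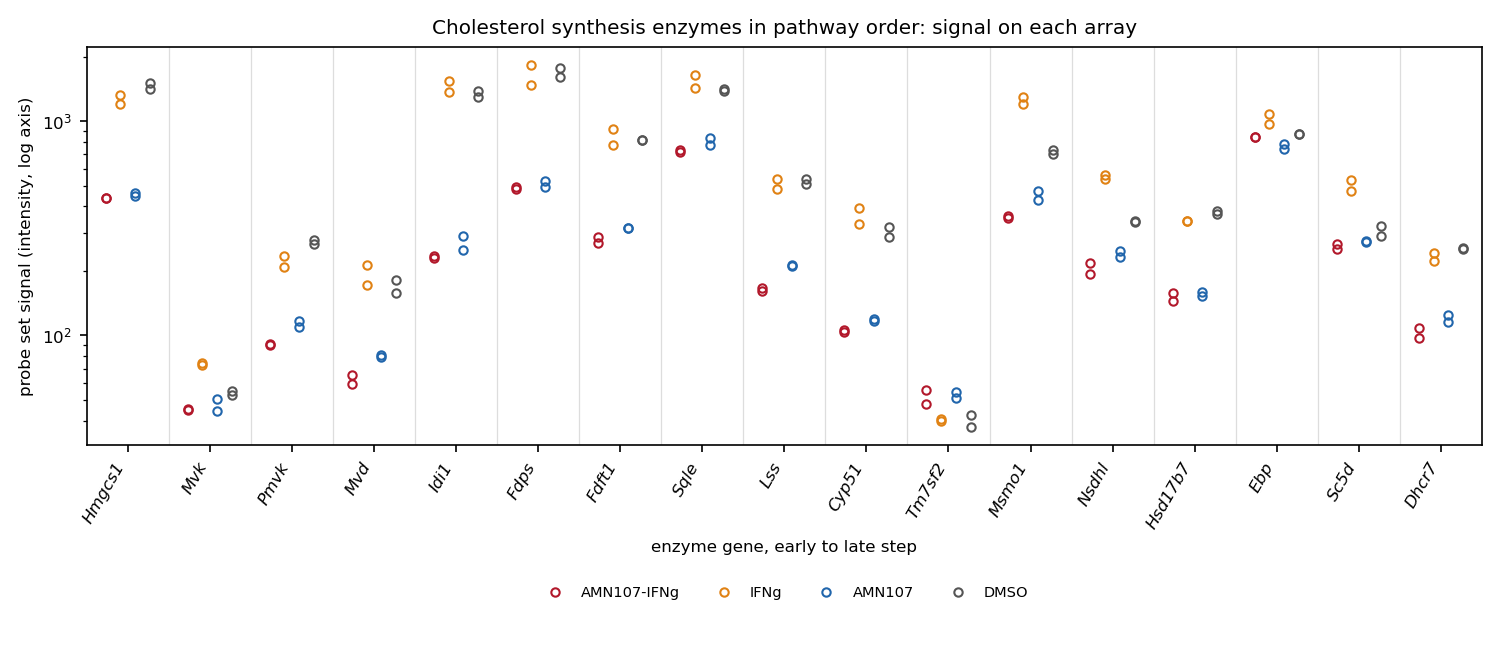
MAS5 signal (log axis) of the 17 tested cholesterol synthesis enzymes in pathway order, 1 point per array, for AMN107-IFNg, IFNg, AMN107 and DMSO arrays. For Idi1, Hmgcs1, Fdps and Lss the AMN107-IFNg and AMN107 points lie below the IFNg and DMSO points. For Lss the AMN107-IFNg points also lie below the AMN107 points.

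The sterol sensors split. Insig1, which holds SREBP in the ER, had 142 and 127 in AMN107-IFNg cells, 282 and 230 in IFNg cells, 155 and 151 in AMN107 cells and 319 and 288 in DMSO cells, and was 2.18-fold lower (adjusted p = 4.50e-08). Srebf2, the gene of SREBP2, was 1.81-fold lower (102 and 95.7 against 187 and 184) and Stard4, a sterol carrier, 1.75-fold lower. Npc1, which exports cholesterol from lysosomes, was 1.51-fold higher at a dim signal (47.9 and 40.1 against 25.4 and 26.8). Over the list 4 of 10 were higher and 4 lower, with a median of 0.01, against 2 higher and 5 lower and a median of -0.18 to -0.12 under the other scalings. Fatty acid genes fell in 9 of 14 tested. Scd2, a stearoyl-CoA desaturase, had 432 and 421 in AMN107-IFNg cells, 1777 and 1558 in IFNg cells, 547 and 549 in AMN107 cells and 1858 and 1626 in DMSO cells, a 4.01-fold fall (adjusted p = 5.42e-12). It was also lower in AMN107-IFNg than in AMN107 cells (log2 -0.35, adjusted p = 0.00877). The elongase Elovl6 was 2.48-fold lower, Scd1 1.78-fold lower and the desaturase Fads2 1.55-fold lower, the last without a call in the fit to all 12 arrays (adjusted p = 0.383). The other 2 probe sets of Scd2, both dimmer, gave -0.56 and -0.38 log2, and the dimmest of the 4 of Hmgcs1 gave -0.68.

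Genes of the amino acid response driven by the transcription factor ATF4 were higher, at levels like those with AMN107 alone. Aldh1l2, a mitochondrial folate enzyme, had 1467 and 1510 in AMN107-IFNg cells, 288 and 243 in IFNg cells, 1436 and 1354 in AMN107 cells and 300.5 and 262 in DMSO cells, a 5.17-fold rise (log2 2.37, SE 0.08, adjusted p = 5.23e-13). Cth, which makes cysteine, rose 4.15-fold, with 1123 and 1069 in AMN107-IFNg cells, 403 and 391 in IFNg cells, 1334 and 1312 in AMN107 cells and 254 and 261 in DMSO cells. The transcription factor Atf5 rose 2.71-fold and Psph, the last enzyme of serine synthesis, 2.37-fold. Of 26 genes tested 19 rose, 6 at least 2-fold, and 3 fell, 1 at least 2-fold, with a median log2 difference of 0.50.

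More lysosomal and autophagy genes rose than fell, by smaller amounts that shrank under the other scalings. Atp6v0d1, a subunit of the lysosomal proton pump, had 484 and 496 in AMN107-IFNg cells, 247 and 238 in IFNg cells, 495 and 477 in AMN107 cells and 156 and 161 in DMSO cells, a 2.99-fold rise (adjusted p = 5.70e-12). The membrane protein Lamp2 rose 2.24-fold, the receptor Scarb2 1.99-fold and the galactosidase Gla 1.74-fold. Over the lysosome list 16 of 26 rose and 4 fell, against 13 higher and 5 or 6 lower under the other scalings. The median of 0.35 was then 0.18 to 0.22. Sqstm1, the autophagy receptor p62, had 1449 and 1391 in AMN107-IFNg cells, 672 and 678 in IFNg cells, 1550 and 1588 in AMN107 cells and 479 and 490 in DMSO cells, a 2.89-fold rise (adjusted p = 1.86e-12). The ATG8 genes Map1lc3a and Gabarap rose 1.68-fold and 1.66-fold and Atg16l1, which helps attach ATG8 proteins to lipid, 1.62-fold. Of 15 autophagy genes 10 rose and 0 fell, against 7 higher and 1 to 3 lower under the other scalings. Their median of 0.26 was then 0.08 to 0.13.

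The targets of nilotinib itself were measured as RNA, which does not report on kinase activity. Abl1 had 136 and 139 in AMN107-IFNg cells and 163 and 173 in DMSO cells, a level 1.21-fold lower (adjusted p = 0.00403) that lost its call when all its probe sets were averaged (adjusted p = 0.0755). Abl2 had 715 and 705 in AMN107-IFNg cells, 511 and 468 in IFNg cells, 490 and 449 in AMN107 cells and 432 and 475 in DMSO cells, a 1.56-fold rise (adjusted p = 1.19e-06) that appeared with both agents together. Its differences from IFNg (log2 0.53, adjusted p = 1.66e-05) and from AMN107 (log2 0.59, adjusted p = 1.72e-05) were called, and its differences of IFNg and of AMN107 alone from DMSO were not (adjusted p = 0.262 and 0.56). Pdgfrb, a PDGF receptor, was 2.13-fold lower at a dim signal (39.1 and 41.4 against 101 and 90.4), and its other probe set gave -0.16 log2. Pdgfra, the other PDGF receptor, had 28.2 and 20.3 in AMN107-IFNg cells and 32.5 and 30.4 in DMSO cells (adjusted p = 0.0515).

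Ddr1, the collagen receptor, had 129 and 120 in AMN107-IFNg cells, 235 and 214 in IFNg cells, 128 and 120 in AMN107 cells and 254 and 245 in DMSO cells, a 1.94-fold fall (adjusted p = 2.88e-08). Nqo2, a reductase that nilotinib also binds, was 1.32-fold higher, which lost its call after quantile normalization. In all, 3 of 10 targets were higher and 5 lower, against 1 to 3 higher and 6 or 7 lower under the other scalings. Over all genes 30.5% were higher and 24.1% lower at the deposited scale. Of 12 ABL adaptors and substrates 6 fell and 1 rose, all by under 2-fold. The scaffold Bcar1 was 1.41-fold lower, Abi2 1.34-fold lower, Wasf1 1.28-fold lower and Dok1 1.32-fold higher. In the fit to all 12 arrays Abi2 (adjusted p = 0.0796) and Dok1 (adjusted p = 0.155) were not called.

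Some genes were low on the DMSO arrays and lay closer together in the other 3 groups. The LysX signal and the actin ratio set the DMSO arrays apart from these 3 groups as well, and their part in these results was not tested. Klf6, an immediate early transcription factor, had 761 and 777 in AMN107-IFNg cells, 572 and 558 in IFNg cells, 743 and 741 in AMN107 cells and 120 and 181 in DMSO cells. Its rise was 4.97-fold (log2 2.31, SE 0.12, adjusted p = 1.27e-10), but its 3 other probe sets gave 1.60, 0.33 and 0.44 log2. The ER chaperones Pdia3 (1997 and 1938 in AMN107-IFNg cells, 1911 and 1825 in IFNg cells, 1862 and 1966 in AMN107 cells, 752 and 918 in DMSO cells) and Hsp90b1 rose 2.35-fold and 2.30-fold. The other probe set of Hsp90b1, of nearly the same brightness, gave 0.25 log2. Pdia6 rose 2.02-fold and Sel1l, of the ER degradation machinery, 1.64-fold. Of 19 chaperone genes 13 rose and 1 fell, against 9 or 10 higher and 2 or 3 lower under the other scalings. Ankrd1, a YAP target, rose 3.02-fold, with 0.91 log2 from its equally bright other probe set, and Ier2 2.63-fold.

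Among the other immediate early genes Klf4 was highest with both agents, with 505 and 516 in AMN107-IFNg cells, 276 and 255 in IFNg cells, 316 and 336 in AMN107 cells and 229 and 176 in DMSO cells, a 2.48-fold rise (adjusted p = 9.52e-09). Egr1 rose 2.11-fold (1928 and 1880 against 758 and 1063). Of 22 such genes 13 rose, 4 at least 2-fold, and 5 fell. Of the genes that feed back on ERK signalling 7 of 11 rose and 3 fell. The phosphatase gene Dusp6 had 447 and 478 in AMN107-IFNg cells, 283 and 239 in IFNg cells, 312 and 310 in AMN107 cells and 139 and 171 in DMSO cells, a 2.89-fold rise (adjusted p = 1.08e-09). Dusp5 rose 2.10-fold, Dusp4 1.81-fold and the transcription factor Etv5 1.58-fold. Among SRF and YAP targets Thbs1 was 1.94-fold higher at a dim signal (47.1 and 43.5 against 15 and 23.9), Ccn2 1.44-fold higher and Lats2 1.53-fold lower, the last with 0.32 log2 the other way from another probe set.

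The matrix genes fell more often than they rose, 10 against 3 of 20 tested. Col3a1, a fibrillar collagen chain, had 141 and 136 in AMN107-IFNg cells, 654 and 471 in IFNg cells, 107 and 117 in AMN107 cells and 617 and 567 in DMSO cells, a 4.08-fold fall (log2 -2.03, SE 0.11, adjusted p = 3.26e-10). Bgn, a proteoglycan, was 1.54-fold lower and Col8a1 1.51-fold lower (its dimmest probe set gave 0.27 log2 the other way), whereas fibronectin (Fn1) was 1.70-fold higher (663 and 634 against 388 and 366). Of 13 matrix proteases and inhibitors 3 were higher and 4 lower, against 2 higher and 7 lower with median centring or equal trimmed means. Adamts1, a protease, rose (226 and 203 against 105 and 100.5, adjusted p = 2.33e-08), as did Plaur, the urokinase receptor (1.46-fold, adjusted p = 0.122 in the fit to all 12 arrays), and Adamts4 fell by 0.38 log2. Timp2, a protease inhibitor, was 1.62-fold lower, with another probe set at 0.45 log2 the other way. The remaining large falls were Cldn9, a tight junction protein (38.9 and 39.4 against 164 and 178, 3.75-fold, with -0.10 log2 from a dimmer probe set), and Sbsn, a secreted protein of the epidermis (254 and 278 against 822 and 783, 2.96-fold).

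Genes of DNA replication fell in 12 and rose in 6 of 25 tested. Tk1, thymidine kinase, had 373 and 390 in AMN107-IFNg cells, 751 and 751 in IFNg cells, 511 and 478 in AMN107 cells and 889 and 914 in DMSO cells, a 2.33-fold fall (log2 -1.22, SE 0.06, adjusted p = 9.11e-11). It was lower in AMN107-IFNg than in AMN107 cells (log2 -0.37). E2f2, an S-phase transcription factor, was 1.70-fold lower and Rrm2, of ribonucleotide reductase, 1.55-fold lower on its brightest of 3 probe sets, the dimmest of which gave 0.47 log2 the other way, while the clamp loader Rfc3 was 1.52-fold higher (adjusted p = 0.0747 in the fit to all 12 arrays). Mitosis genes showed no common direction at the deposited scale, 7 higher and 6 lower of 23, and 12 or 13 lower under the other scalings. Mki67 had 659 and 620 in AMN107-IFNg cells and 850 and 861 in DMSO cells (1.33-fold lower), Bub1b and Cenpa were 1.51-fold and 1.44-fold lower, and the kinase Aurka was 1.73-fold higher, with the low DMSO pattern described above (341 and 330). Of 13 p53 targets 4 rose and 5 fell, where 30.5% of all genes were higher and 24.1% lower. Ccng1, a cyclin, was 2.12-fold lower, the RNA-binding Zmat3 1.74-fold and the CDK inhibitor Cdkn1a 1.46-fold lower, and the receptor Eda2r 1.64-fold higher.

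The NRF2 and hypoxia lists had no common direction. Of 15 NRF2 targets 6 were higher and 4 lower, against 2 to 4 higher and 5 or 6 lower under the other scalings, and the median of 0.13 was between -0.03 and 0.00 under the other scalings. Hmox1, haem oxygenase, had 253 and 245 in AMN107-IFNg cells, 183 and 188 in IFNg cells, 251 and 311 in AMN107 cells and 93.8 and 94.1 in DMSO cells, and Gclm, of glutathione synthesis, was 2.22-fold higher. Nqo1 and Osgin1 were 1.56-fold and 1.41-fold lower. Of 21 hypoxia and glycolysis genes 7 were higher and 4 lower, against 5 or 6 higher and 8 or 9 lower under the other scalings. Bnip3, a mitophagy receptor, was 2.45-fold higher with a wide error (1048 and 817 against 482 and 288, SE 0.21), the hexokinase Hk2 1.46-fold higher, and the hydroxylase Egln3 2.03-fold and the kinase Pdk1 1.43-fold lower. Pdk1 lost its call without the first DMSO array (adjusted p = 0.234).

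The IFNg and AMN107 arrays, which share no array with AMN107-IFNg against DMSO, sorted the called genes by which agent alone gave the higher level. Over all genes 109 (0.894%) were at least 2-fold higher in IFNg than in AMN107 cells and 109 (0.894%) lower. Of the 408 genes at least 2-fold higher in AMN107-IFNg cells, 57 (14.0%) were at least 2-fold higher in IFNg than in AMN107 cells, 66 (16.2%) were at least 2-fold lower, and 285 (69.9%) were neither. The order of the 57 and the 66 depended on the scaling. They became 55 and 49 after quantile normalization, 57 and 44 after median centring and 54 and 50 with equal trimmed means. Of the 57 that fell, 19 (33.3%) were at least 2-fold higher in IFNg than in AMN107 cells and 38 (66.7%) were neither. The genes with the largest difference towards IFNg among them were Iigp1 (log2 6.83, IFNg minus AMN107), BC023105 (4.20), Cxcl9 (4.11), Ifi47 (3.86) and Gbp2b (3.67).

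The genes with the largest difference towards AMN107 were of other kinds. B4galnt2, a glycosyltransferase, had 343 and 301 in AMN107-IFNg cells, 36.7 and 29.5 in IFNg cells, 347 and 347 in AMN107 cells and 42.7 and 35.8 in DMSO cells, a 6.90-fold rise over DMSO (log2 2.79, adjusted p = 9.72e-13) and -3.10 log2 from IFNg minus AMN107. Its dimmer probe sets gave rises of 0.53 and 1.14 log2. Iah1, an esterase-like hydrolase, had 1581 and 1493 in AMN107-IFNg cells, 228 and 219 in IFNg cells, 1425 and 1537 in AMN107 cells and 280 and 296 in DMSO cells, a 5.21-fold rise (adjusted p = 3.73e-14). Aldh1l2 followed (log2 -2.36, IFNg minus AMN107), then Car6, a secreted carbonic anhydrase (60.2 and 69.9 against 14.9 and 14.6, 3.14-fold), and Dpysl3, a cytoskeletal protein of neurons (336 and 344 against 99.6 and 117, 2.99-fold).

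**Figure D4:**
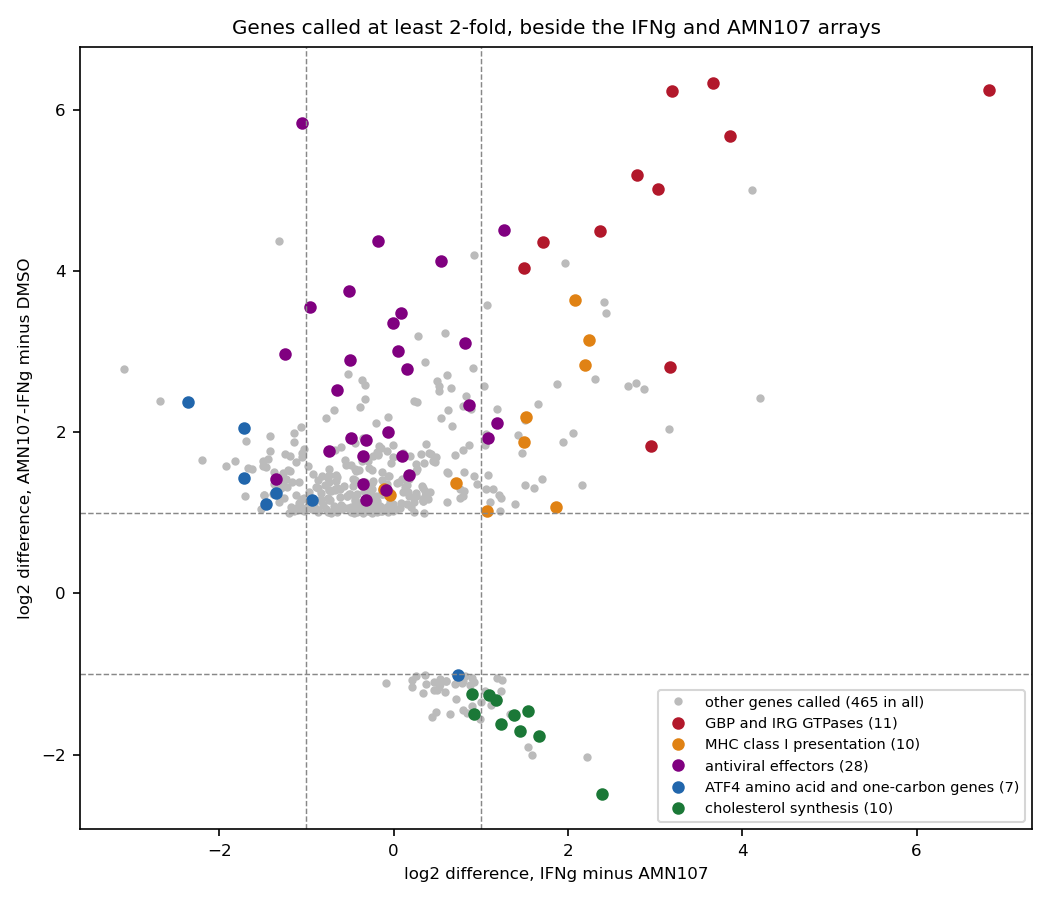
Each gene at least 2-fold different between AMN107-IFNg and DMSO (465 genes), with its log2 difference of IFNg minus AMN107 (horizontal) and of AMN107-IFNg minus DMSO (vertical), which share no array. Coloured points are called members of 5 gene lists and dashed lines mark 2-fold. GTPases lie at the upper right, called ATF4 genes mostly at the upper left, antiviral effectors spread around 0 on the horizontal axis, and cholesterol synthesis enzymes lie at the lower right.

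The combined state was then set against the sum of both single effects on the log2 scale, as the interaction (AMN107-IFNg minus IFNg) minus (AMN107 minus DMSO). At least 2-fold departures were called above the sum for 7 genes (0.0574%) and below it for 68 (0.558%). The 5 furthest below were GTPases: Gbp2 (-2.89), Igtp (-2.46), Gbp7 (-2.46), Gbp2b (-2.24) and Irgm2 (-2.23). Gbp2b was 2.46 log2 higher in AMN107 than in DMSO cells (adjusted p = 1.64e-11), while AMN107-IFNg and IFNg cells differed by 0.22 log2 (adjusted p = 0.0872). By construction the DMSO level enters the interaction, so genes low on the DMSO arrays alone also fall below the sum.

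Of the genes above the sum, Ifi44l and Mx1 were dim with either agent alone, while Phf11d was brighter. Ifi44l had 82.5 and 57.3 in AMN107-IFNg cells, 11 and 12.1 in IFNg cells, 11.7 and 13.2 in AMN107 cells and 8.90 and 7.92 in DMSO cells (interaction 1.64, SE 0.17, adjusted p = 1.44e-05). Mx1, an antiviral dynamin-like GTPase, had 70.4 and 53.4 in AMN107-IFNg cells, 9.06 and 14.5 in IFNg cells, 16.3 and 17.9 in AMN107 cells and 11.4 and 14.5 in DMSO cells (interaction 1.53, adjusted p = 4.03e-05). Phf11d (234 and 392 in AMN107-IFNg cells, 79.8 and 82.0 in IFNg cells, 56.5 and 52.6 in AMN107 cells, 34.4 and 49.9 in DMSO cells) had 1.47, Cxcl9 1.42 and Gm11772 1.12. The interactions of Ifit3 (0.25, adjusted p = 0.346) and Cmpk2 (-0.09, adjusted p = 0.889) were not called, and both genes were called higher than in DMSO cells with either agent alone.

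**Figure D5:**
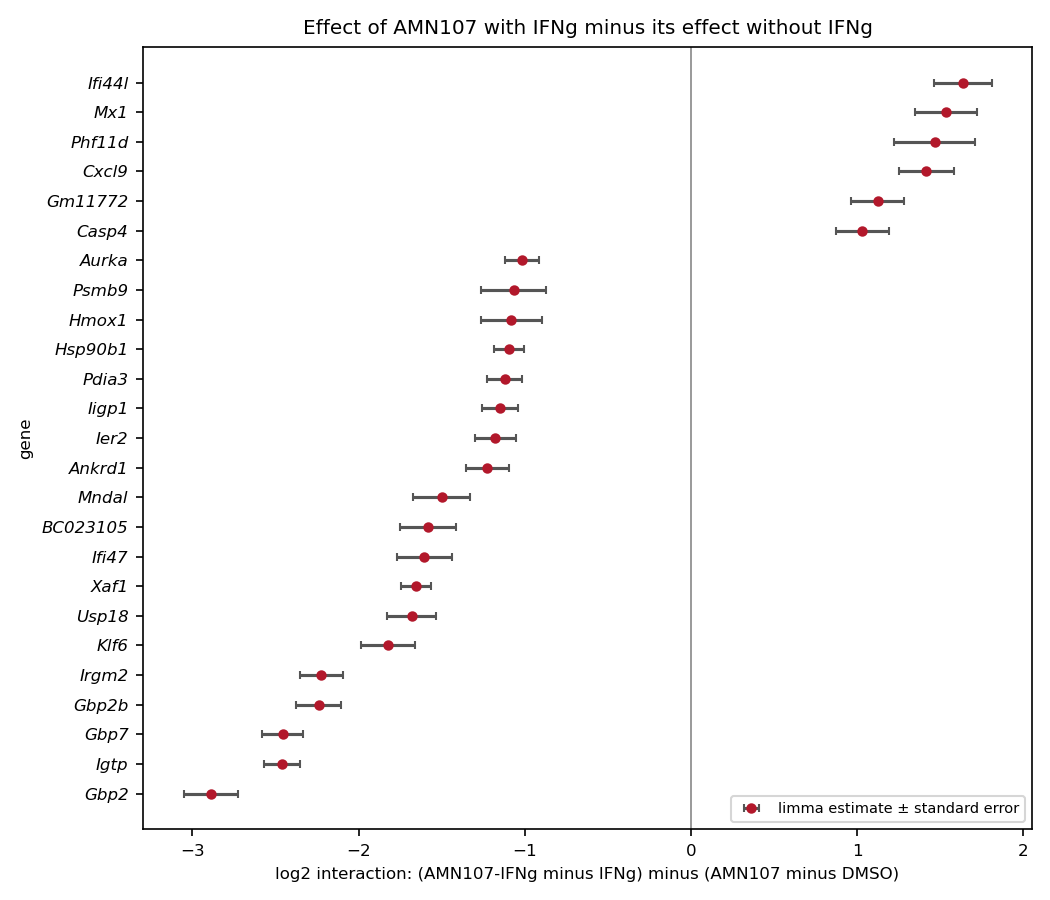
Log2 interaction, (AMN107-IFNg minus IFNg) minus (AMN107 minus DMSO), of the 25 named genes with an adjusted p under 0.05 and a size of at least 1, as limma's estimate (point) and its standard error (bar). A total of 6 genes lie above 0, led by Ifi44l and Mx1, and 19 below it, with Gbp2 at -2.89 the lowest.

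The letters of the printed elements were counted in the promoters of the called genes. The motifs were GAAA, any 2 bases and GAAA again (ISRE core), TTCNNNGAA (GAS, which reads the same on both strands), TCACNCCAC (sterol regulatory element) and TGATGNAA (C/EBP-ATF element), searched on both strands. A gene was counted once if any of its promoters held a match, and 9859 of the genes tested had a promoter. The ISRE core was in 46 of 319 genes (14.4%) at least 2-fold higher and 0 of 44 at least 2-fold lower. It was in 3.46% of genes tested and, counted by promoter, in 3.44% of all 32851 promoters. By list it was in 7 of 8 GTPases (87.5%), 11 of 27 antiviral genes (40.7%) and 3 of 10 MHC class I genes (30.0%). It was also in 2 of 15 JAK-STAT (13.3%), 1 of 14 cholesterol synthesis (7.14%) and 1 of 23 ATF4 genes (4.35%). GAS letters were in 30 of 319 genes (9.40%) at least 2-fold higher and in 1 of 44 (2.27%) at least 2-fold lower. They were in 8.1% of genes tested and in 8.30% of all promoters. They were in 3 of 8 GTPases (37.5%), 10 of 27 antiviral genes (37.0%), 5 of 15 JAK-STAT genes (33.3%) and 1 of 10 MHC class I genes (10.0%). Outside the interferon lists they were in 5 of 23 ATF4 genes (21.7%) and 1 of 14 cholesterol synthesis genes (7.14%). The sterol element was in 1 of 14 cholesterol synthesis genes (7.14%), Hmgcs1, in 1.42% of genes tested and in 1.24% of all promoters. It was in 3 of 319 genes (0.94%) at least 2-fold higher and in 1 of 44 (2.27%) at least 2-fold lower. The C/EBP-ATF element was in 8 of 23 ATF4 genes (34.8%). It was in 14 of 319 genes (4.39%) at least 2-fold higher and in 2 of 44 (4.55%) at least 2-fold lower. It was in 2.61% of genes tested and 3.97% of all promoters. A match is a description of the letters in this window and does not show that a factor binds there.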

How the data were processed

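RNA of mouse embryonic fibroblasts was measured on 12 Affymetrix arrays, 2 in each of 6 groups. The authors deposited linear signal intensity per probe set; per the submitters' processing notes the tool was MAS5, with no version or scaling rule. Of 45101 probe sets 64 were controls; the platform annotation gave 1 gene for 34945, several for 932 and none for 9160. Gene IDs of 34741 were matched in RefSeq's GRCm38.p6 table and 0 symbols changed.

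The scale was log2(signal + 8.66), with the mean of the arrays' 25th percentiles, 8.66, as pseudocount. Probe sets were kept if above the array median on at least 2 of 12 arrays, and the brightest per gene was used, which left 12192 genes. limma 3.58.1 in R 4.3.3 (lmFit, eBayes with trend, two-sided) fitted 1 mean for each of 5 groups to 10 arrays. Both IFNa arrays were left out because they varied more (SD of the replicate difference 0.401, against 0.119 to 0.144 in the other groups). P was adjusted by Benjamini-Hochberg over all 12192 genes at 0.05. On simulated data 96% to 100% of genes changed by 1 or 2 log2 were recovered, and 11 unchanged genes were called (5.26% of the calls). The simulation held no array-wide shift and no difference in array quality between groups, so it cannot show how these affect the calls. The number of arrays limits the precision.

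Named genes were the 12 largest rises and 8 largest falls, up to 4 members per list with the largest difference, 14 receptors, kinases and regulators of which 3 were not tested, and the 5 genes furthest each way in IFNg against AMN107 and in the interaction. That made 144 genes, 105 of them with a RefSeq promoter. The genes, lists and tests were chosen with earlier results of these data known. Nothing in the labels pairs arrays by replicate number, and deviations of same-numbered arrays correlated at -0.143 to 0.312 over 15 pairs of groups, so no pairing was used. Alternatives changed the arrays fitted, pseudocount, filter, scaling, probe set choice, trend and replicate block, and left out each array in turn.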

Additional observations from a re-analysis of the deposited data

Results flagged for a closer look

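The results below were picked out because the effect of AMN107 differed between cells with and without IFNg, by limma's test of the interaction. Each value is the interaction on the log2 scale, (AMN107-IFNg minus IFNg) minus (AMN107 minus DMSO), for a named gene whose interaction had an adjusted p under 0.05 and was at least 1 in size.

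Interferon-inducible GTPases lay below the sum of the single effects: Gbp2 at -2.89, Igtp at -2.46, Gbp7 at -2.46, Gbp2b at -2.24, Irgm2 at -2.23, Ifi47 at -1.60 and Iigp1 at -1.15. Other interferon-induced genes below the sum were Usp18 at -1.68, Xaf1 at -1.65, BC023105 at -1.58, Mndal at -1.50 and Psmb9 at -1.07. BC023105 had 107 and 87.3 in AMN107-IFNg cells, 285 and 379 in IFNg cells, 9.05 and 10.3 in AMN107 cells and 10.4 and 11.5 in DMSO cells.

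A second set below the sum was low in DMSO cells: Klf6 at -1.82, Ankrd1 at -1.22, Ier2 at -1.18, Pdia3 at -1.12, Hsp90b1 at -1.09, Hmox1 at -1.08 and Aurka at -1.02. The LysX signal and actin ratio also set the DMSO arrays apart from the IFNg, AMN107 and AMN107-IFNg arrays, and their part in these values was not tested.

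Above the sum lay Ifi44l at 1.64, Mx1 at 1.53, Phf11d at 1.47, Cxcl9 at 1.42, Gm11772 at 1.12 and Casp4 at 1.03. Casp4 had 141 and 138 in AMN107-IFNg cells, 65.2 and 81.5 in IFNg cells, 16.9 and 17.5 in AMN107 cells and 21.2 and 19.7 in DMSO cells.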

How the results depend on the processing

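Across 25 alternatives, none of the 144 named genes changed sign with a call. The 408 genes at least 2-fold higher became 294 to 475, and 388 to 448 when 1 array was left out. The 57 at least 2-fold lower became 99 with median centring, 97 with quantile normalization and 29 with a pseudocount 4 times as large, and 53 to 65 when 1 array was left out. The 2934 lower at any size became 5686 with median centring, 4976 with equal trimmed means, 1781 with all 12 arrays and 1715 with a filter at the 75th percentile (7516 genes), and 1997 to 3001 when 1 array was left out; the 3723 higher became 2488 with all 12 arrays and 3072 to 3826 when 1 array was left out. Of the genes higher in AMN107-IFNg cells, the 57 that were higher in IFNg than AMN107 became 50 to 60 and the 66 that were lower became 63 to 68 when 1 array was left out, and the 66 became 40 with the larger pseudocount. The 57 that were higher in IFNg than AMN107 also became 40 with that pseudocount. With all 12 arrays, a fit that adds the IFNa array with low 5′/3′ ratios, 8 named genes lost their call (Fdps, Abi2, Dok1, Fads2, Plaur, Rfc3, Pdk1 and Jak1). Averaging probe sets cost Lats2, Pdk1 and Abl1 theirs, quantile normalization Nqo2 and leaving out the first DMSO array Pdk1.

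With the replicate number as a replicate block, 408 genes were at least 2-fold higher and 57 lower, and 3703 and 2908 at any size. With the AMN107-IFNg numbers crossed, a pairing chosen after seeing the data, the counts were 408, 57, 3701 and 2929.

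Genes near background and those that lie under the array median in DMSO cells have folds that depend on the pseudocount. AMN107 dose and duration, the scaling of the deposited signals and separate cultures are not given in the sources used here, and with 2 arrays a group each mean rests on both arrays.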
